A study of Rattus norvegicus with 34 samples.

Results

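The Wnt ligands, their Frizzled receptors and co-receptors, the R-spondins with their LGR receptors and the secreted Wnt antagonists were examined in the left ventricle (LV) and in peripheral blood mononuclear cells (PBMCs) of rats 2 months after myocardial infarction (MI). The genes were chosen by their symbols: every array row named Wnt, Fzd, Sfrp or Dkk with a digit, together with Frzb, Wif1, Lrp5, Lrp6, Axin2, Lgr4, Lgr5, Rspo1 to Rspo3 and Ctnnb1. Rows annotated with several symbols were left out. This gave 44 genes of 29214 transcript clusters, the array's unit for a gene. They comprised 17 ligands, 8 Frizzled receptors, 2 co-receptors, 5 R-spondins and LGRs, 10 secreted antagonists and 2 intracellular proteins. Rows were to be selected on the highest mean signal per symbol, but each symbol had 1 row, so that no signal entered the choice. Wnt7a, Wnt11, Fzd7 and Fzd10 were not analysed here.

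All animals were male Wistar rats. The proximal left coronary artery was ligated in the MI rats, whereas in the sham-operated rats the suture was passed but not tied. LV arrays came from 6 sham-operated rats, 6 rats with small MI (S-MI), 6 with moderate MI (M-MI) and 5 with large MI (L-MI), and PBMC arrays from 6 sham-operated and 5 L-MI rats. Infarct size was graded by echocardiographic wall motion. The operation was otherwise the same. The sham samples were whole LV, while the MI samples were the part of the LV without visible scar. In each LV comparison with sham, infarct and dissection therefore differ together and cannot be told apart. The comparisons among MI groups are between hearts that were all dissected in this way, although the part without scar shrinks as the infarct grows. In the study only the L-MI rats developed heart failure. Infarct size, the part sampled and heart failure therefore differ together in comparisons of L-MI with the other MI groups. Age was not given in the sources used here. The arrays are described as biological replicates.

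Wnt ligands are secreted lipid-modified glycoproteins that bind Frizzled receptors. With the co-receptors Lrp5 and Lrp6 they stop the breakdown of β-catenin (Ctnnb1), which then enters the nucleus and acts with TCF/LEF factors on targets such as Axin2. Other ligands, with Wnt5a as the usual example, signal without β-catenin through planar polarity or calcium. Sfrp proteins and Frzb resemble the ligand-binding part of Frizzled and bind Wnts outside the cell, Wif1 also binds the ligands, and Dkk1 blocks Lrp5 and Lrp6. In the adult heart the pathway is quiet and is known to be re-engaged after injury, where fibroblasts are one source of its secreted members.

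Promoter sequence was taken from RefSeq on the rat build GRCr8, where 29 of the 44 genes had an entry, among them Sfrp2 and Frzb, both upregulated in L-MI hearts. These are printed with that of Axin2, the textbook β-catenin target, because the family's own feedback runs through TCF/LEF sites. Each sequence is the 250 bases before the transcription start, read 5′ to 3′ on the gene's strand, and capitals mark CTTTGA or CTTTGT, the TCF/LEF letters searched on both strands.
Sfrp2, chr2:171387286-171387535, plus strand: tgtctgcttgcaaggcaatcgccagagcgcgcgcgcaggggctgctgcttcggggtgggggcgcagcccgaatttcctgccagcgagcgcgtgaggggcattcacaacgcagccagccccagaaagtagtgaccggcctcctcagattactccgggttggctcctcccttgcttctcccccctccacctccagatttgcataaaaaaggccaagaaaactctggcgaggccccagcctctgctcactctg
Frzb, chr3:85772097-85772346, minus strand: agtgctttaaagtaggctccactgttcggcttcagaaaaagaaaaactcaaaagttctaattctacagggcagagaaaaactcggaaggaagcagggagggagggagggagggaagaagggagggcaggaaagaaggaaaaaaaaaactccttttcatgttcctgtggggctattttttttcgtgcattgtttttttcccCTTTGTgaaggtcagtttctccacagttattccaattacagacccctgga
Axin2, chr10:94398535-94398784, plus strand: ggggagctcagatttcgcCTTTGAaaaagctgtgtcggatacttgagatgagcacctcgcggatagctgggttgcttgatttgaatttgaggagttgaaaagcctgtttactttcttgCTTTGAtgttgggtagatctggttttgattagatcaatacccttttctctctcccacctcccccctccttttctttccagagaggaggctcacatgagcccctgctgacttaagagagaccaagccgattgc
The letters occurred 2 times before Axin2, 1 time before Frzb and 0 times before Sfrp2. They were present before 6 of the 29 genes (20.7%), namely Axin2, Dkk1, Frzb, Sfrp5, Wnt8a and Wnt8b, and before 27.2% of 27457 promoters of the same length. The median GC content was 63.6% for the 29 genes and 52.0% for all promoters. Such matches are letters and not shown binding sites.

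Signals are log2 values after robust multiarray average (RMA) normalisation. The LV arrays had medians of 6.52 to 6.61 and the PBMC arrays of 6.97 to 7.01, so levels were not compared between tissues, nor between genes, whose probes differ. Markers matched the labelled tissues. The log2 of the summed signal of 11 cardiomyocyte genes was 16.59 to 16.62 in sham LV, and that of 10 T cell genes was 14.80 to 14.99 in sham PBMCs. On the first principal component 5 LV arrays stood apart, namely replicates 4 and 6 of sham and replicates 4 and 5 of S-MI at one end (scores of 112 to 138) and L-MI replicate 4 at the other (-165), while the remaining arrays scored from -64.8 to 52. Results without them are given beside those they touch. L-MI replicate 1 of both tissues is titled as large MI but described as compensated, a word otherwise used for S-MI and M-MI. It was kept as L-MI. With it left out, the same 6 genes described below were called in LV.

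In L-MI hearts, 5 of the 10 secreted antagonists were upregulated, while none of the ligands, co-receptors or intracellular members passed the same limits. Under limma, with a call requiring a 1.3-fold difference and an adjusted p ≤ 0.05, 6 of the 44 genes were higher in L-MI than in sham and 0 were lower. Over all transcript clusters, 2.08% were called higher and 1.14% lower. The 6 were Sfrp1, Sfrp2, Sfrp4, Frzb and Dkk3, which are 5 of the 10 secreted antagonists, and the receptor Fzd2. Roles followed the gene symbols, so that every Dkk gene, Dkk3 among them, was counted as a secreted antagonist. The median log2 fold change was 0.38 for the antagonists, 0.12 for the Frizzleds, 0.05 for the ligands and -0.06 for the R-spondins and LGRs, beside -0.01 for all clusters. In bulk tissue, more cells of a type and more RNA per cell cannot be told apart. After centring each array on its median, 524 clusters were called higher and 431 lower in place of 608 and 333, and the same 6 of the 44 genes were called. Without L-MI replicate 4 the count was 5, with Fzd2 lost, and without all 5 arrays that stood apart it was 4, with Fzd2 and Frzb lost.

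**Figure D1:**
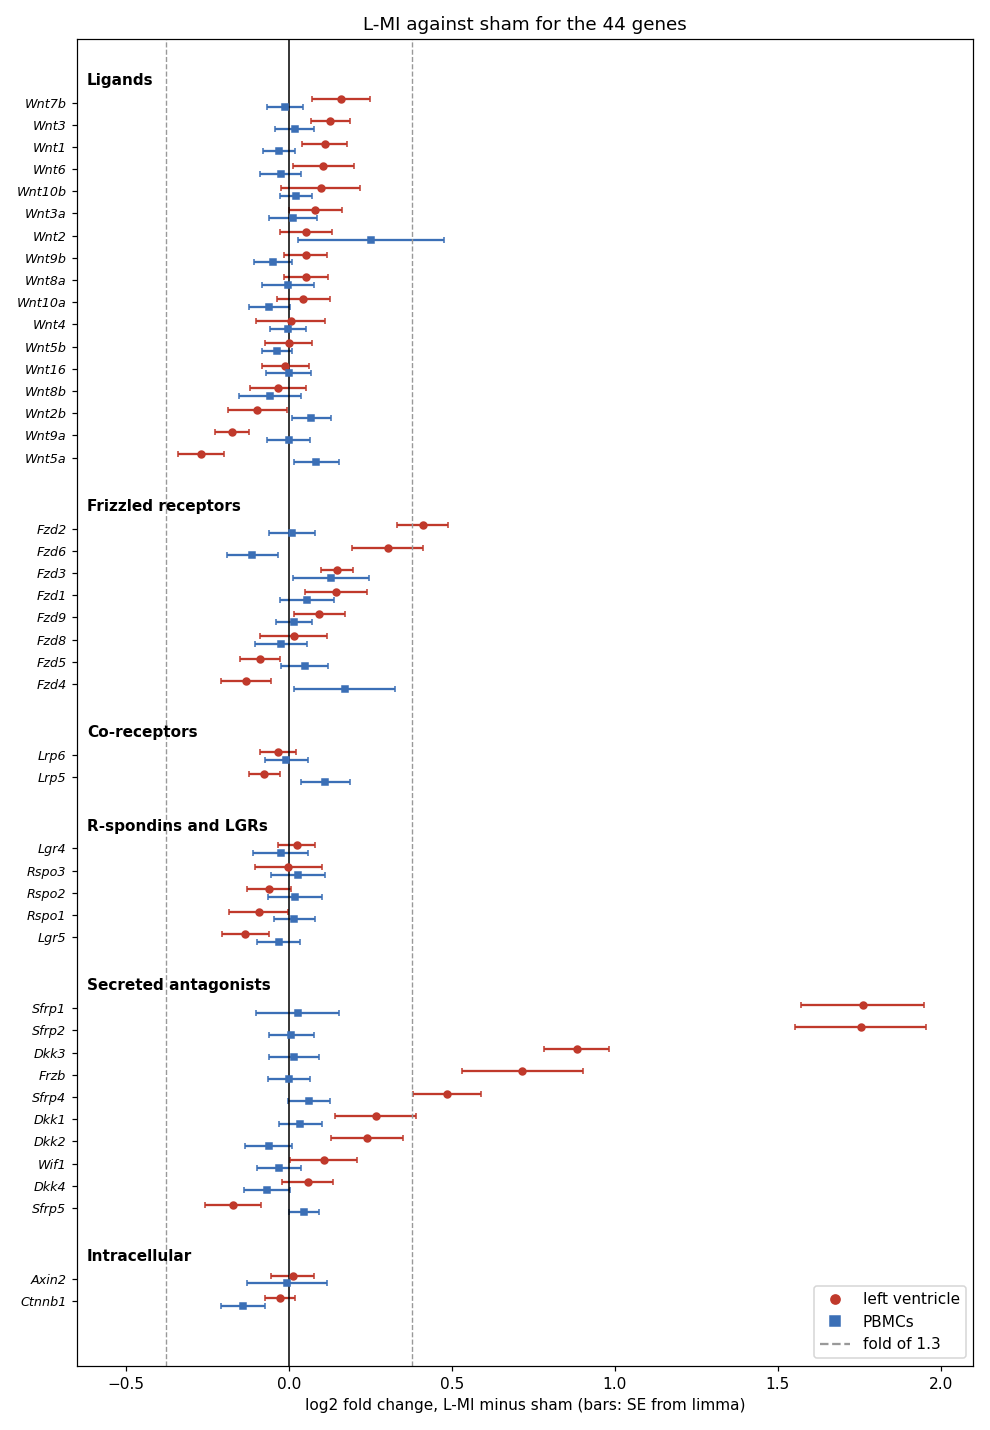
Log2 fold change of L-MI minus sham for the 44 genes, grouped by role, in LV (red circles) and PBMCs (blue squares), with standard errors from limma as bars and dashed lines at a fold of 1.3. Sfrp1 (1.76) and Sfrp2 (1.75) stand far to the right in LV, followed by Dkk3, Frzb, Sfrp4 and Fzd2, while the largest PBMC estimate is 0.25 (Wnt2).

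Sfrp1, a secreted Frizzled-related protein that binds Wnt ligands, had log2 signals of 8.73, 8.13, 8.23, 9.05 and 9.39 in L-MI replicates 1 to 5. In sham hearts the lowest, median and highest signals were 6.60, 6.98 and 7.22. All L-MI arrays thus lay above all sham arrays. The log2 fold change was 1.76 (SE 0.19, limma adjusted p 3.74e-06), a 3.39-fold rise.

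Sfrp2, a close relative that also affects collagen maturation, rose by a similar amount. Its L-MI signals were 9.31, 8.29, 8.66, 9.36 and 9.45, and its sham signals ran from 6.78 through a median of 7.25 to 7.58. The groups did not overlap, and replicates 2 and 3 were the lowest of the L-MI hearts for both Sfrp1 and Sfrp2. This was a log2 fold change of 1.75 (SE 0.20, limma adjusted p 7.01e-06), a 3.37-fold rise.

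Dkk3, which carries the Dickkopf name but is not an established Lrp5 or Lrp6 blocker, had the most even L-MI signals of the 6 genes, at 10.84, 10.61, 10.77, 10.75 and 10.80. Sham signals were 9.56, 9.84 and 10.25 (lowest, median, highest), all below the L-MI arrays. L-MI exceeded sham by 0.88 on the log2 scale (SE 0.10, limma adjusted p 6.54e-06), or 1.84-fold.

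Frzb, also called Sfrp3, was the most uneven. The L-MI signals were 7.28, 8.08, 7.04, 7.91 and 8.62, against 6.91, 7.07 and 7.22 as the lowest, median and highest sham signals. Replicate 3 lay inside the sham range and replicate 1 only just above it. The log2 fold change of 0.72 (SE 0.19, limma adjusted p 0.0150) rested in part on replicate 5, without which it was 0.51 with an adjusted p of 0.0515. With only L-MI and sham arrays in the fit, the adjusted p was 0.0804, and without the 5 arrays that stood apart it was 0.0770.

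Sfrp4, another Wnt-binding Sfrp, had L-MI signals of 6.00, 5.60, 5.59, 5.65 and 6.34, and sham signals of 5.10, 5.39 and 5.47 (lowest, median, highest). Every L-MI array lay above the sham arrays, with replicates 1 and 5 well above the other L-MI arrays. The log2 fold change was 0.48 (SE 0.11, limma adjusted p 0.00373), or 1.40-fold, and fell to 0.36, below the fold limit, without L-MI replicate 5. Replicate 5 was the highest L-MI array for 7 of the 10 antagonists, replicate 2 the lowest for 4.

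The other 5 antagonists were not called in L-MI hearts. Dkk1, the Lrp5 and Lrp6 blocker, measured 4.80 ± 0.15 in L-MI and 4.53 ± 0.30 in sham (SD), with a log2 difference of 0.27 (limma adjusted p 0.213). Dkk2, a related Dickkopf, differed by 0.24 (limma adjusted p 0.208), and its highest L-MI array was again replicate 5, at 5.69. Wif1 differed by 0.11, Dkk4 by 0.06 and Sfrp5, the remaining Sfrp, by -0.17 (limma adjusted p 0.255).

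Of the Frizzled receptors, Fzd2 was called. Its L-MI signals were 8.27, 7.85, 8.27, 8.38 and 8.32, against sham values of 7.64, 7.87 and 7.89 (lowest, median, highest). Replicate 2 lay within the sham range and the other 4 above it. The log2 fold change was 0.41 (SE 0.08, limma adjusted p 0.00113), or 1.33-fold, close to the fold limit, and it passed below that limit without L-MI replicate 4 (0.37) or sham replicate 5 (0.38).

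Fzd6 and Fzd3, receptors known for planar polarity, were not called. Fzd6 measured 7.99 ± 0.18 in L-MI and 7.68 ± 0.17 in sham (SD), a difference of 0.30 (limma adjusted p 0.0910). Fzd3 signals in L-MI hearts lay between 6.08 and 6.11 and in sham hearts between 5.87 and 6.03, so that the groups did not overlap, yet the difference was 0.15 with an adjusted p of 0.0629. Fzd4, a receptor also used by norrin in vessels, differed by -0.13 (adjusted p 0.354), and Fzd1, Fzd5, Fzd8 and Fzd9 by between -0.09 and 0.14.

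**Figure D2:**
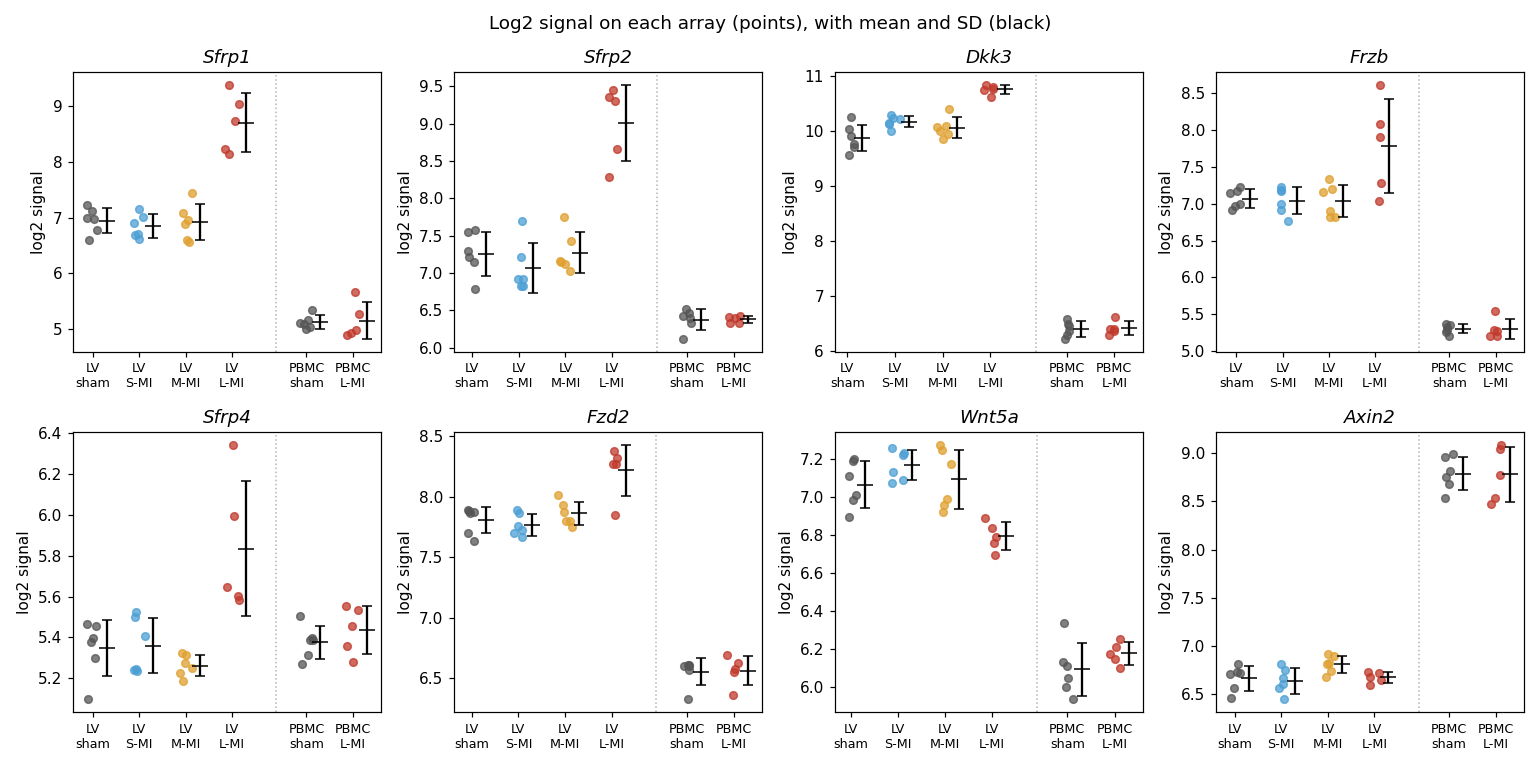
Log2 signal of 8 genes on each array (points) by group, with group means and SDs in black and LV to the left of the dotted line. L-MI hearts stand above the other hearts for Sfrp1, Sfrp2, Dkk3 and Sfrp4, and below them for Wnt5a, while Axin2 lies at a mean of 6.66 in sham and 6.67 in L-MI hearts.

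None of the 17 ligands was called. Their mean signal per array was 6.08 to 6.24 in sham and 6.15 to 6.32 in L-MI hearts, below the array medians of 6.52 to 6.61. Of the 44 genes, 23 had a mean below the median of the LV arrays. For such dim genes the lack of a call does not show that they were unchanged. At the adjusted p alone, with no fold limit, 6 of the 44 genes were higher and 2 lower in L-MI, where 4.57% of all clusters were higher and 4.91% lower. Both lower genes were ligands. Wnt5a, the main β-catenin-independent ligand, had L-MI signals of 6.84, 6.76, 6.70, 6.89 and 6.79 and sham signals of 6.89, 7.06 and 7.20 (lowest, median, highest). The highest L-MI array lay just under the lowest sham array. The log2 fold change was -0.27 (SE 0.07, limma adjusted p 0.0141), a ratio of 0.829, and the adjusted p was 0.105 without the sham and S-MI arrays that stood apart and 0.0918 when L-MI replicate 4 was left out as well.

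Wnt9a, a ligand known from joint and valve development, ran from 6.86 to 6.97 in L-MI and from 6.98 to 7.23 in sham hearts, again without overlap. Its log2 fold change was -0.18 (SE 0.05, limma adjusted p 0.0313). In 9 of 32 alternatives this adjusted p no longer passed, the highest being 0.177 without the 5 arrays that stood apart. Among the other ligands, Wnt3 differed by 0.13 (adjusted p 0.217), Wnt7b by 0.16 (adjusted p 0.315) and Wnt9b by 0.05 (adjusted p 0.723), and the rest lay between -0.10 and 0.11.

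The co-receptors and intracellular members differed little. Ctnnb1 measured 10.71 ± 0.05 in L-MI and 10.73 ± 0.03 in sham hearts (SD), and the 95% confidence interval of the log2 difference was -0.12 to 0.07. Axin2, the negative feedback target, measured 6.67 ± 0.06 and 6.66 ± 0.13, with an interval of -0.13 to 0.15. Lrp5 differed by -0.08 (interval -0.18 to 0.02) and Lrp6 by -0.03 (interval -0.15 to 0.08). These intervals all lie inside the fold limit of 1.3, which is 0.38 on the log2 scale.

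The R-spondins, which sustain Frizzled at the cell surface, and their LGR receptors showed no call either. Lgr5 had the largest difference, -0.13 (limma adjusted p 0.292). Rspo1 differed by -0.09, Rspo2 by -0.06, Rspo3 by less than 0.01 and Lgr4 by 0.02.

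**Figure D3:**
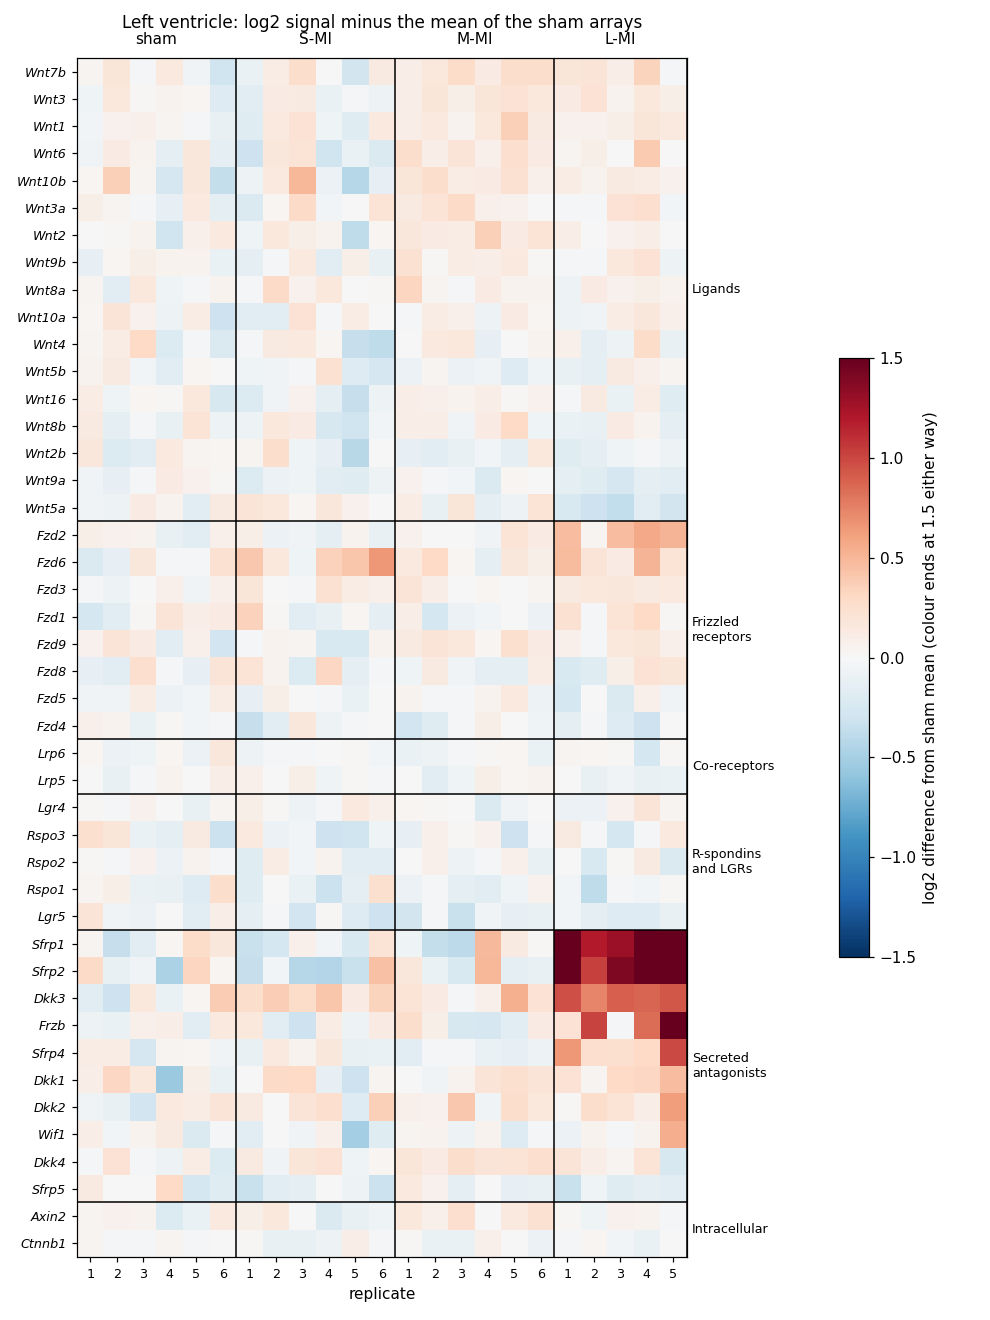
Log2 signal minus the mean of the sham arrays for the 44 genes (rows, grouped by role) on the 23 LV arrays (columns, by group and replicate), with colour ending at 1.5 in either direction. The strong red block covers Sfrp1, Sfrp2 and Dkk3 in all 5 L-MI hearts, with Frzb near the sham mean in replicate 3 (-0.03) and Fzd2 near it in replicate 2 (0.04).

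Marker genes of several cell types moved in the same L-MI hearts, where 2.08% of all clusters were called higher and 1.14% lower. Of 12 fibroblast markers 7 were called higher, among them Col1a1, Col3a1 and Thy1, and their summed log2 signal was 14.52 to 14.74 in L-MI against 14.29 to 14.42 in sham. Of 7 activated fibroblast markers 5 were higher, including Postn and Comp (summed 12.20 to 12.62 against 11.75 to 12.01). All 11 macrophage markers were higher (summed 12.25 to 12.94 against 11.68 to 11.92). Cardiomyocyte markers summed to 16.48 to 16.56 against 16.59 to 16.62, with 0 of 11 called, and 0 of 9 endothelial markers were called. Of 3 atrial cardiomyocyte markers Nppa was higher (summed 12.72 to 13.66 against 10.88 to 12.34), and of 4 erythroid markers Slc4a1 was lower (summed 8.43 to 8.77 against 8.89 to 9.15). The study measured Nppa in the LV as a heart failure biomarker, so that the atrial sum is not a measure of atrial cells alone. L-MI replicate 5 had the highest and replicate 2 the lowest sums for both fibroblast lists. This order was not particular to them. The mesothelial sum was also lowest in replicate 2 (9.30) and highest in replicate 5 (9.45). Replicate 2 was lowest for the macrophage (12.25) and atrial (12.72) sums as well. The part of these cell types in the Sfrp, Frzb, Dkk3 and Fzd2 values was not tested.

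No gene of the family was called in hearts with moderate or small infarcts. In M-MI against sham, 0 of 44 genes were called by limma, as were 0% of all clusters higher and 0% lower, and the differences ran from -0.15 (Lgr5) to 0.20 (Dkk4). At an unadjusted p of at most 0.05, 7 of 44 genes passed, 6 of them higher, beside 7.03% of all clusters. In S-MI against sham, 0 of 44 were again called with 0% of clusters higher and 0% lower, and differences ran from -0.19 (Sfrp2) to 0.32 (Fzd6). At an unadjusted p of at most 0.05, 5 of 44 genes passed, 2 of them higher, beside 6.33% of all clusters.

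Levels in the smaller infarcts are given here for a few members. Sfrp1 measured 6.85 ± 0.21 in S-MI and 6.92 ± 0.33 in M-MI, both overlapping the sham mean of 6.95 ± 0.23 (SD). Dkk3 measured 10.17 ± 0.10 in S-MI and 10.06 ± 0.19 in M-MI against 9.87 ± 0.25 in sham, differences of 0.30 and 0.19 that did not pass (limma adjusted p 0.599 and 0.708). Fzd6 in S-MI ran from 7.62 through a median of 8.06 to 8.34, a spread that covers the L-MI arrays, but the difference of 0.32 from sham did not pass (limma adjusted p 0.615). Axin2 was highest in M-MI, at 6.81 ± 0.09, a difference of 0.15 from sham (limma adjusted p 0.695).

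**Figure D4:**
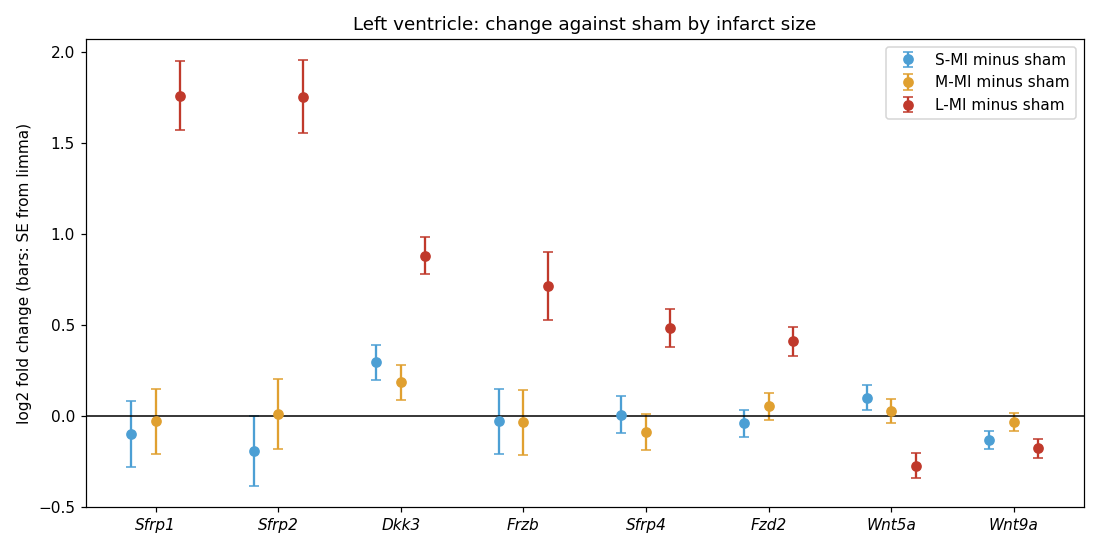
Log2 fold change against sham, with standard errors from limma as bars, for 8 genes in S-MI (blue), M-MI (orange) and L-MI (red) hearts. Sfrp1 lies at -0.10 and -0.03 in S-MI and M-MI and at 1.76 in L-MI, and Dkk3 at 0.30, 0.19 and 0.88.

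Direct comparisons tested whether large infarcts differed from the smaller ones. Between L-MI and M-MI, 5 of 44 genes were called higher and 0 lower, where 1.99% and 0.695% of all clusters were. These were Sfrp1 (log2 fold change 1.79), Sfrp2 (1.74), Frzb (0.75), Dkk3 (0.70) and Sfrp4 (0.57), of which Frzb was lost without the 5 arrays that stood apart. Fzd2 passed the adjusted p (0.00485) with a difference of 0.36, under the fold limit.

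Between L-MI and S-MI, 6 of 44 were called higher and 0 lower, beside 1.57% and 0.911% of all clusters. Sfrp2 differed by 1.95, Sfrp1 by 1.86, Frzb by 0.74, Dkk3 by 0.59, Sfrp4 by 0.48 and Fzd2 by 0.45. Wnt5a differed between L-MI and M-MI by -0.30 (limma adjusted p 0.00825) and between L-MI and S-MI by -0.37 (limma adjusted p 0.00153), both short of the fold limit. Its L-MI arrays, at up to 6.89, lay below all M-MI arrays (from 6.92) and all S-MI arrays (from 7.07). Without the 5 arrays that stood apart, Frzb was no longer called against S-MI while Wnt5a was, and Wnt5a was also called without L-MI replicate 4 alone. All contrasts with L-MI share the L-MI arrays.

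In PBMCs none of the 44 genes differed between L-MI and sham rats when a call required a 1.2-fold difference together with an unadjusted limma p of at most 0.05, and none did at an adjusted p. Over all clusters, 0.486% were called higher and 0.438% lower, and 3.77% passed the unadjusted p alone, against 0 of the 44 genes. Of the 44 genes, 33 had a mean below the median of the PBMC arrays and 7 a mean below their lower quartile. For these dim genes the lack of a call does not show that they were unchanged. Sfrp1 measured 5.15 ± 0.33 in L-MI and 5.12 ± 0.12 in sham PBMCs (SD). Dkk3 measured 6.41 ± 0.12 and 6.40 ± 0.14. Sfrp1 thus lay below the lower quartile of the PBMC arrays (5.61 to 5.68) and Dkk3 below their median (6.97 to 7.01). The differences ran from -0.14 for Ctnnb1 (10.62 ± 0.14 against 10.77 ± 0.07) to 0.25 for the ligand Wnt2. The Wnt2 value came from replicate 5, at 8.14, whereas the other L-MI replicates ran from 6.59 to 6.92 and sham from 6.60 to 6.89. The erythroid marker sum varied widely among these arrays, from 10.19 to 14.12 in L-MI and from 10.34 to 13.22 in sham, and its part was not tested.

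The L-MI effect was then compared between tissues by a limma interaction on 22 arrays, where a call required an adjusted p ≤ 0.05 and no fold. The LV effect exceeded the PBMC effect for 3 of 44 genes and was below it for 1, where 1.39% and 1.16% of all clusters were. The difference was 1.75 for Sfrp2 (limma adjusted p 1.45e-04), 1.73 for Sfrp1 (4.18e-04) and 0.87 for Dkk3 (6.96e-04). In PBMCs Sfrp1 lay below the lower quartile of the arrays and Dkk3 below their median. For these genes the interaction therefore adds little to the LV change. For Wnt5a it was -0.35 (limma adjusted p 0.0473), a call lost in 21 of 28 alternatives, with an adjusted p of 0.0655 without LV L-MI replicate 1. Frzb (0.72, adjusted p 0.156), Sfrp4 (0.42, adjusted p 0.173) and Fzd2 (0.40, adjusted p 0.0793) did not pass. Heart and blood were collected together in the study, and its sham and L-MI groups were as large as the array groups of each tissue. Both tissues thus probably came from the same rats, but which arrays share a rat was not given. The arrays were treated as separate, so that the interaction ignores any such pairing.

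Further genes of the pathway were examined in L-MI against sham hearts. Of 8 measured genes for Wnt export and heparan sulphate handling, 2 were called higher and 0 lower, where 2.08% and 1.14% of all clusters were. They were Sulf1 and Sulf2, extracellular sulphatases that trim heparan sulphate, each with a log2 fold change of 0.49 (limma adjusted p 2.84e-04 and 8.32e-04). Wls, the carrier that brings Wnts to the cell surface, was higher by 0.31 (adjusted p 0.00149), under the fold limit, and the glypican Gpc4 was lower by a log2 fold change of -0.25 (adjusted p 0.0260). At the adjusted p alone 4 of the 8 were higher and 1 lower, where 4.57% and 4.91% of all clusters were. The median of these 8 genes was 0.17.

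Among 12 other receptors and surface regulators 0 were called, also at the adjusted p alone. The smallest p-values were those of Ror1 (0.19, limma adjusted p 0.135), a Wnt5a receptor, Rnf43 (-0.19, adjusted p 0.162), which removes Frizzleds from the surface, Ptk7 (0.14) and Kremen2 (0.21). Among 32 cytoplasmic and nuclear transducers 0 were called, with a median difference of 0.00. At the adjusted p alone 3 were higher and 1 lower, where 4.57% and 4.91% of all clusters were. Btrc, the ubiquitin ligase subunit that targets β-catenin, was higher by 0.30 (adjusted p 3.53e-04), Nkd2, a Dishevelled-binding inhibitor, by 0.28 (adjusted p 0.0265) and Gsk3b, the kinase that marks β-catenin, by 0.14 (adjusted p 0.0360). The transcriptional corepressor Ctbp1 differed by -0.17 (adjusted p 0.0370). Among 19 genes of the planar polarity and calcium branch 0 were called. At the adjusted p alone 0 were higher and 3 lower, beside the same 4.57% and 4.91% of all clusters. These were the calcium-dependent kinases Camk2g (-0.23, limma adjusted p 0.00166) and Camk2a (-0.22, adjusted p 0.0160) and the transcription factor Nfatc3 (-0.18, adjusted p 0.0316), while the GTPase Rhoa differed by 0.11 (adjusted p 0.0917).

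Among 22 genes often listed as β-catenin targets, 2 were called higher and 0 lower in L-MI hearts, beside the 2.08% and 1.14% of all clusters, with a list median of 0.10. Ccn5, a matricellular protein, differed by 1.61 (limma adjusted p 4.76e-07) and Ccnd1, a cell cycle regulator, by 0.50 (adjusted p 0.00129). Cd44, a hyaluronan receptor, passed the adjusted p (0.0191) with 0.37, just under the fold limit, and Nkd1 differed by 0.21 (adjusted p 0.0510). At the adjusted p alone 3 of the 22 were higher and 0 lower, where 4.57% and 4.91% of all clusters were. Bmp4 differed by 0.38 (adjusted p 0.0722), Edn1 by 0.34 (adjusted p 0.0539) and Ccn4 by 0.33 (adjusted p 0.0562), and these did not pass. Myc (0.25, adjusted p 0.161), Lef1 (0.05) and Tcf7 (-0.11) did not pass either. In M-MI and S-MI hearts 0 genes of these 5 lists were called. In PBMCs, Jun was called lower, by -0.38, and no other gene of the lists. This call used the unadjusted limma p (0.0176), the adjusted p was 0.9997, and 0.438% of all clusters were called lower.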

How the data were processed

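The authors amplified and labelled total RNA, hybridised it to Affymetrix whole-transcript rat arrays and deposited RMA-normalised values made with Partek software, as log2 signal per transcript cluster for 34 arrays. The log base was inferred from the range of the values, and the genome build was not given in the sources used here. Gene symbols came from the platform annotation, in which 15310 clusters had 1 symbol, 323 several and 13581 none. Differences were tested with limma 3.58.1 in R 4.3.3 on all 29214 clusters, with 1 mean per group and Benjamini-Hochberg adjustment over all of them. LV arrays were fitted together, PBMC arrays apart, and the interaction on the 22 sham and L-MI arrays of both tissues. Thresholds followed the study's methods (fold of at least 1.3 and adjusted p of at most 0.05 in LV, fold of at least 1.2 and p of at most 0.05 in PBMCs). The PBMC p was left unadjusted here, since the methods name no adjustment with that limit although a supplement title does. Named genes are those called, the 4 with the smallest p and the 1 with the highest mean per role, and the 4 with the smallest p per pathway list. Further genes were named after their values were seen. The members and lists were chosen with earlier results of these data known. Marker sums are the log2 of summed linear signals. The number of arrays limits the precision. The scripts were tested on simulated data. Figures were drawn with matplotlib.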

Additional observations from a re-analysis of the deposited data

Results flagged for a closer look

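Within groups of 4 to 10 arrays, the gap of the outermost array to its neighbour, divided by the group's range, exceeded Dixon's 95% limit in 8 of 132 groups of the named genes, where chance gives about 1 in 20. In LV the ratio was 0.798 for Fzd2 in L-MI replicate 2 (7.85, next 8.27), 0.837 for Rspo1 in L-MI replicate 2 (6.70, next 7.03), 0.902 for Lrp6 in L-MI replicate 4 (9.19, next 9.47) and 0.654 for Lgr4 in M-MI replicate 4 (8.95, next 9.11), each the lowest of its group. In PBMCs it was 0.849 for Fzd2 in sham replicate 3 (6.33, lowest), 0.718 for Wnt3 in L-MI replicate 3 (6.26, lowest), 0.767 for Frzb in L-MI replicate 4 (5.54, highest) and 0.847 for Fzd3 in L-MI replicate 1 (6.65, highest).

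The effect of L-MI differed between LV and PBMCs, by the limma interaction term, for Sfrp2 (1.75 on the log2 scale), Sfrp1 (1.73), Dkk3 (0.87) and Wnt5a (-0.35). Sfrp1 and Dkk3 were dim in PBMCs, so that for them this adds little to the LV change.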

How the results depend on the processing

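The alternatives were unmoderated variances, limma-trend, array weights, median-centred arrays, leaving out the 30% dimmest clusters, other fold limits, only the groups compared, a replicate block, each array left out in turn and, chosen after seeing the data, leaving out the 4 sham and S-MI arrays that stood apart, alone or with L-MI replicate 4. The count of called genes stayed within 1.5 times its value in all of them, and no direction was reversed. With 1 array left out it was 4 to 6 for L-MI against sham, 5 to 6 against M-MI, 5 to 7 against S-MI, 3 to 4 for the interaction and 0 for M-MI, S-MI and PBMCs. For L-MI against sham the lowest count, 4, came without L-MI replicate 5, which lost Frzb and Sfrp4. Under the other alternatives these counts were 4 to 8, 4 to 7, 4 to 7, 3 to 5 and 0. Sfrp1, Sfrp2 and Dkk3 in L-MI against sham kept their calls throughout, between 1.59 and 1.90, 1.56 and 1.94, and 0.82 and 0.96 on the log2 scale. Sfrp4 is among the dimmest 30% and Sfrp1 was left out by that filter in the interaction. The Wnt5a interaction lost its call in 21 of 28 alternatives.

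Deviations of same-numbered arrays correlated between -0.263 and 0.261. Such values cannot show whether same-numbered heart and blood arrays came from the same rat, since tissues of a rat need not vary together. With the replicate number as a block, 6 genes were called in L-MI against sham. Choosing another row per symbol could not be run, because each symbol has 1 row.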
